A study of Mus musculus with 10 samples.

Results

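The 6 genes described here encode enzymes that carry acetyl-CoA carbon through mevalonate to squalene: Hmgcs1, Mvk, Mvd, Idi1, Fdps and Fdft1. They were found as the probe sets that the platform annotation gives to 1 of these genes alone, which yielded 10 of 12488 probe sets, and they stand for 6 of the 8251 genes tested. Each gene was read from the probe set whose mean signal over the 10 arrays was highest: 94325_at for Hmgcs1, 95633_r_at for Mvk, 160770_at for Mvd, 96269_at for Idi1, 99098_at for Fdps and 97518_at for Fdft1. Only Mvk and Fdps had more than 1 probe set, and their other probe sets served as a check.

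Liver RNA was measured on Affymetrix MG_U74Av2 arrays, which read each transcript through a set of short oligonucleotides, in a study of direct targets of SREBP, the transcription factor family of lipid synthesis. TgSREBP-1a and TgSREBP-2 mice overexpressed a human SREBP, SREBP-1a in one line and SREBP-2 in the other, each as its nuclear form, which is active in transcription. These mice and their wild type littermates, called WT high-protein here, were males of 12 to 16 weeks and were kept for 2 weeks on food high in protein and low in carbohydrate, a diet that raises expression of the transgenes. The promoter that drives the transgenes is not given in the sources used here. Scap-/- mice carried MX1-Cre and lacked SCAP, the escort protein that SREBPs need for their activation. These mice and their wild type controls, called WT chow here, were males of 10 to 12 weeks on Teklad chow, and both received 4 injections of polyinosinic-polycytidylic acid, which switches on the Cre recombinase, with livers taken 14 days after the last one. MX1-Cre is known to act in cell types other than hepatocytes as well. In each of the 5 groups RNA from 5 mice was combined into 1 pool, and every pool was hybridised to 2 arrays. Each comparison below is therefore between pools, and its errors and p-values hold the spread between 2 hybridisations and no spread between mice.

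Of the 6 enzymes the first to act is HMG-CoA synthase, the product of Hmgcs1, which joins acetoacetyl-CoA and acetyl-CoA. Further along the route mevalonate kinase (Mvk) and mevalonate diphosphate decarboxylase (Mvd) turn mevalonate into isopentenyl diphosphate, and Idi1 isomerises part of it to dimethylallyl diphosphate. Fdps condenses these units to farnesyl diphosphate, the branch point to ubiquinone, dolichol and prenylated proteins, and Fdft1, squalene synthase, commits it to sterols. In the liver the genes of this route are known targets of SREBPs, which bind sterol regulatory elements, usually together with the factors NF-Y or Sp1 bound nearby. Sterols hold the SCAP and SREBP complex in the endoplasmic reticulum, so cells low in cholesterol activate the route.

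Promoters are shown because most members moved together across the pools, Mvk less closely, and the genes of this route are known SREBP targets. RefSeq windows of GRCm38.p6 were matched for 4 of the 6 members, Hmgcs1, Mvk, Mvd and Idi1, and not for Fdps and Fdft1. Each window below is the 250 bases before the annotated start site, read 5′ to 3′ on the strand of the gene. Capitals mark matches on either strand to TCACNCCAC, a consensus of the sterol regulatory element, and to CCAAT, the box that NF-Y binds (ATTGG where it lies on the other strand). The Hmgcs1 window is chr13:119690101-119690350 on the plus strand, the Mvk window chr5:114444019-114444268 on the plus strand, the Mvd window chr8:122443423-122443672 on the minus strand, and the Idi1 window chr13:8885356-8885605 on the plus strand.
Hmgcs1: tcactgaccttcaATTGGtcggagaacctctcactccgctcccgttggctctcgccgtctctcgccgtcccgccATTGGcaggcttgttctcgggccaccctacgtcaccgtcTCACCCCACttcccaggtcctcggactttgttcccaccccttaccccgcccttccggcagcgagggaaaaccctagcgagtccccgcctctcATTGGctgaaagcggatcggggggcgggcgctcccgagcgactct
Mvk: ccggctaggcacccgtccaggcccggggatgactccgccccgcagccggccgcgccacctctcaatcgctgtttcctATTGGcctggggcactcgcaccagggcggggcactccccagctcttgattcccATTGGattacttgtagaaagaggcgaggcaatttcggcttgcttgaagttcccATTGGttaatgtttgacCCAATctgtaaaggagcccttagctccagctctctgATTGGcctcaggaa
Mvd: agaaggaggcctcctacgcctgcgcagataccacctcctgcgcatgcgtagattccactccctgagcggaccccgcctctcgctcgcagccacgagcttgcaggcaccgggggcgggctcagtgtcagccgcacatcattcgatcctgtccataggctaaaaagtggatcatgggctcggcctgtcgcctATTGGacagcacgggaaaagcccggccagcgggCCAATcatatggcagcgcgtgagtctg
Idi1: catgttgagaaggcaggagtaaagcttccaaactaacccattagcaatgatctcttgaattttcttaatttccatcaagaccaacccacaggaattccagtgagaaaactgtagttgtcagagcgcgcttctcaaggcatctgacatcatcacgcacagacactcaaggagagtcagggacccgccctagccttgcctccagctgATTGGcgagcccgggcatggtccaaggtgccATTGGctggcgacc
TCACNCCAC was found in 1 of the 4 windows. It is the match TCACCCCAC of Hmgcs1, whose first base lies at position -137 from the start site, and 1.05% of the 32851 windows of the same length in the table hold such a match. CCAAT was found in all 4, with 3 matches in Hmgcs1, 5 in Mvk, 2 in Mvd and 2 in Idi1, while 33.9% of all windows hold at least 1 and 0.213% hold 5 or more. GGGCGG, the GC box that Sp1 binds, was also found in all 4 and in 32.7% of all windows. CANNTG, the E-box, was found in Hmgcs1, Mvd and Idi1 and in 66.2% of all windows, and none of these matches overlapped a TCACNCCAC match. The E-box match of Hmgcs1 shares bases with its farthest CCAAT match. A match describes letters in a window and does not show binding. Only exact matches were counted, so a window without TCACNCCAC is not shown to lack a sterol regulatory element.

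The arrays read liver RNA by their markers. Albumin (Alb) ran from 13.48 to 13.85 log2 signal over the 10 arrays, at or above 99.93% of genes on each, and 8 of 9 listed hepatocyte markers were measured. The transthyretin gene Ttr varied most, from 8.75 to 10.95. In TgSREBP-1a 1 of the 8 rose and 1 fell, with differences of -1.37 to 0.77 log2, and between the controls 1 was called each way; in TgSREBP-2 and Scap-/- limma called 0, with 0 and 3 at an unadjusted p under 0.05. The probe sets of Scap and Srebf2 were not analysed here, so loss of Scap itself was not checked. Duplicate arrays correlated at 0.9921 to 0.9978 over all genes. Among the members the widest gap between duplicates was in Hmgcs1, at 0.61 log2 between the TgSREBP-1a arrays and 0.52 between the WT high-protein arrays. Markers of exocrine pancreas moved with some pools: the summed linear signal of 7 measured of 10 listed was 1307 to 1350 in TgSREBP-1a, 21690 to 22090 in TgSREBP-2 and 16160 to 16250 in WT high-protein, and 1803 to 1874 in Scap-/- against 7999 to 8200 in WT chow. All 7 fell in TgSREBP-1a and in Scap-/-, 2 rose in TgSREBP-2 and 6 were higher in WT high-protein than in WT chow. The summed signal of 10 measured of 11 listed macrophage markers was 4440 to 4664 in TgSREBP-1a, 3565 to 3834 in TgSREBP-2 and 2760 to 2767 in WT high-protein, and 3932 to 3996 in Scap-/- against 4032 to 4294 in WT chow. Of these 10, 5 rose in TgSREBP-1a, 3 rose in TgSREBP-2, limma called 0 in Scap-/- (2 at an unadjusted p under 0.05) and 4 were lower in WT high-protein than in WT chow. Of 7 endothelial markers measured 2 rose in TgSREBP-1a, of 9 lymphocyte markers 1 rose in TgSREBP-1a and 1 fell in Scap-/-, and of 3 adipocyte markers 1 fell in TgSREBP-1a; no marker of the endothelial, lymphocyte and adipocyte lists was called in TgSREBP-2 against WT high-protein. None of 9 stellate and 3 cholangiocyte markers was called in a comparison with wild type. Of all genes 4.78% were called higher in TgSREBP-1a, 2.18% higher in TgSREBP-2 and 0.921% lower in Scap-/-. Between the controls 4.34% were called lower in WT high-protein. Beside these shares a single call in a short list says little. The part of these cell types in the results below was not tested. In RNA of whole liver, a change in the share of a cell type and a change in RNA per cell cannot be told apart.

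Across the 5 pools the members shared most of their order. In Hmgcs1, Mvd, Idi1 and Fdft1 the mean log2 signal was highest in TgSREBP-2, followed by TgSREBP-1a, WT chow, and then Scap-/- and WT high-protein, whose arrays overlapped. Fdps differed in having TgSREBP-1a first, and its WT high-protein arrays lay above its Scap-/- arrays. Mvk differed more, with WT chow above TgSREBP-1a. The distance between the highest and the lowest pool mean was 4.37 log2 for Idi1, or 20.6-fold, 3.84 for Hmgcs1, 3.55 for Fdps and 3.18 for Fdft1. It was smaller for Mvd, at 1.98, and for Mvk, at 1.61, or 3.05-fold.

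**Figure D1:**
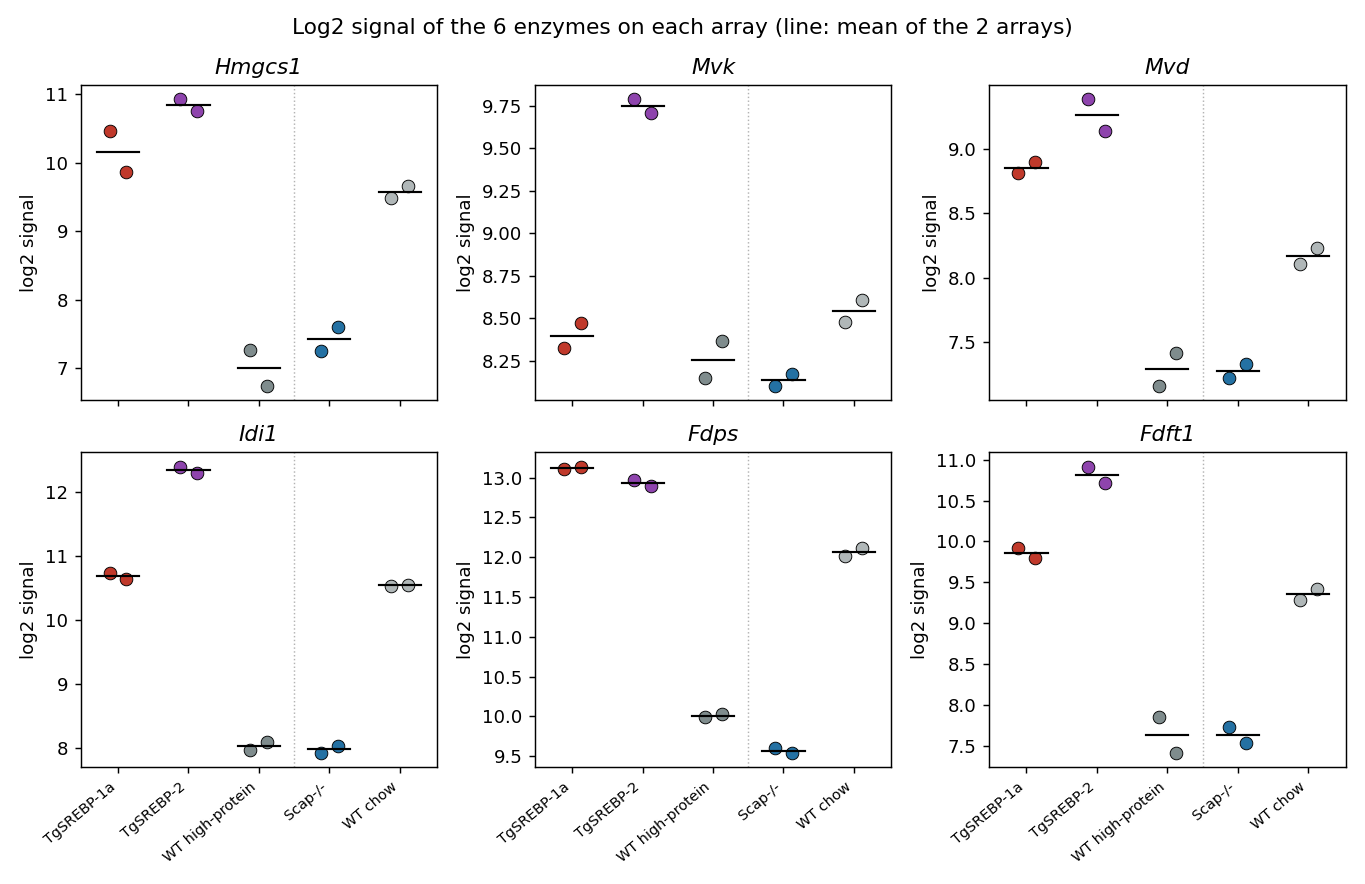
Log2 signal (vertical axis, a separate scale per gene that does not start at 0) of the 6 enzymes on each array, by pool (horizontal axis); points are the 2 arrays of a pool, replicate 1 left of replicate 2, lines are their means, and the dotted line parts the high-protein set from the Scap set. In 5 of the 6 genes both transgenic pools lie above WT high-protein without overlap; in Mvk only TgSREBP-2 does.

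The pair of controls was not alike. Hmgcs1 had 7.26 and 6.74 log2 signal on the WT high-protein arrays and 9.48 and 9.66 on the WT chow arrays. Its difference was -2.57 ± 0.21 log2 (SE, 2 arrays per pool; adjusted p = 3.55e-05 in limma's moderated test with Benjamini-Hochberg adjustment over 8251 genes). A gene is called here when that adjusted p is under 0.05 and the difference is at least 1.5-fold, and "rose" or "fell" is written only of called genes. By this rule 5 of 6 members were lower in WT high-protein, all but Mvk, where 4.34% of all genes were called lower. Idi1 stood at -2.51 ± 0.09, Fdps at -2.06 ± 0.08, Fdft1 at -1.72 ± 0.14 and Mvd at -0.88 ± 0.11, against a median of 0.01 over all genes. Mvk was at -0.29 ± 0.10 (adjusted p = 0.0609 in limma), also short of 1.5-fold, and its dimmer probe set was called lower at -0.68 ± 0.08. Diet, age, injections and pool differ together between these controls and cannot be told apart. The transgenic comparisons thus have the lower of the control levels beneath them and the Scap comparison the higher.

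In the TgSREBP-1a pool 5 of the 6 enzymes rose against WT high-protein, by 1.56 to 3.16 log2, where 4.78% of all genes were called higher. Hmgcs1, the first of the 6 enzymes along the route, had 10.46 and 9.86 log2 signal in TgSREBP-1a and 7.26 and 6.74 in WT high-protein. It rose 8.94-fold (3.16 ± 0.21 log2, 95% interval 2.68 to 3.64, adjusted p = 3.15e-06 in limma). Fdps had 13.11 and 13.14 in TgSREBP-1a and 9.99 and 10.03 in WT high-protein, and rose 8.66-fold (3.11 ± 0.08, interval 2.94 to 3.29). The arrays of the pools lay far apart for both, and Fdps had the closer duplicates. The isomerase gene Idi1 was read at 10.74 and 10.64 in TgSREBP-1a, against 7.96 and 8.10 in WT high-protein, a rise of 2.66 ± 0.09 log2 (interval 2.46 to 2.85). Squalene synthase Fdft1 was read at 9.92 and 9.80 in TgSREBP-1a, against 7.85 and 7.41 in WT high-protein, a rise of 2.23 ± 0.14 (interval 1.91 to 2.54). The decarboxylase gene Mvd, read at 8.81 and 8.90 in TgSREBP-1a and 7.16 and 7.42 in WT high-protein, had the smallest rise of the 5, at 1.56 ± 0.11 (interval 1.31 to 1.82).

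Mvk was the exception in this pool. Mevalonate kinase was read at 8.32 and 8.47 log2 signal in TgSREBP-1a and at 8.15 and 8.36 in WT high-protein. These arrays overlapped, with 3 of 4 array pairs higher in TgSREBP-1a. The difference was 0.14 ± 0.10 log2 (95% interval -0.08 to 0.36, adjusted p = 0.386 in limma), and leaving out single arrays moved it between 0.03 and 0.25. Its dimmer probe set was at 0.24 ± 0.08, also not called. The upper bound of the interval lies below the lower bound of each of the other 5, although a test between genes was not run.

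In the TgSREBP-2 pool all 6 enzymes rose, by 1.49 to 4.31 log2, where 2.18% of all genes were called higher. Idi1 had 12.40 and 12.29 log2 signal in TgSREBP-2, against 7.96 and 8.10 in WT high-protein. This difference of 4.31 ± 0.09 (interval 4.12 to 4.51, adjusted p = 1.73e-09 in limma) was the largest increase among the 8251 genes. Hmgcs1 had 10.93 and 10.75 in TgSREBP-2 and 7.26 and 6.74 in WT high-protein, a rise of 3.84 ± 0.21 (interval 3.36 to 4.31) that ranked 4 among all increases. Fdft1 was read at 10.92 and 10.72 in TgSREBP-2 and at 7.85 and 7.41 in WT high-protein, and rose 9.09-fold (3.18 ± 0.14, interval 2.87 to 3.50). None of these arrays overlapped between the pools. Fdps, at 12.97 and 12.90 in TgSREBP-2 and 9.99 and 10.03 in WT high-protein, rose by 2.92 ± 0.08 (interval 2.75 to 3.09). Mvd, at 9.39 and 9.14 in TgSREBP-2 and 7.16 and 7.42 in WT high-protein, rose by 1.97 ± 0.11 (interval 1.72 to 2.22). Mvk, at 9.79 and 9.71 in TgSREBP-2 and 8.15 and 8.36 in WT high-protein, rose 2.81-fold (1.49 ± 0.10, interval 1.27 to 1.71). The kinase gene thus did rise in this pool, with all 4 array pairs in that direction, and its dimmer probe set rose by 2.23 ± 0.08. Both transgenic comparisons use the same WT high-protein arrays.

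**Figure D2:**
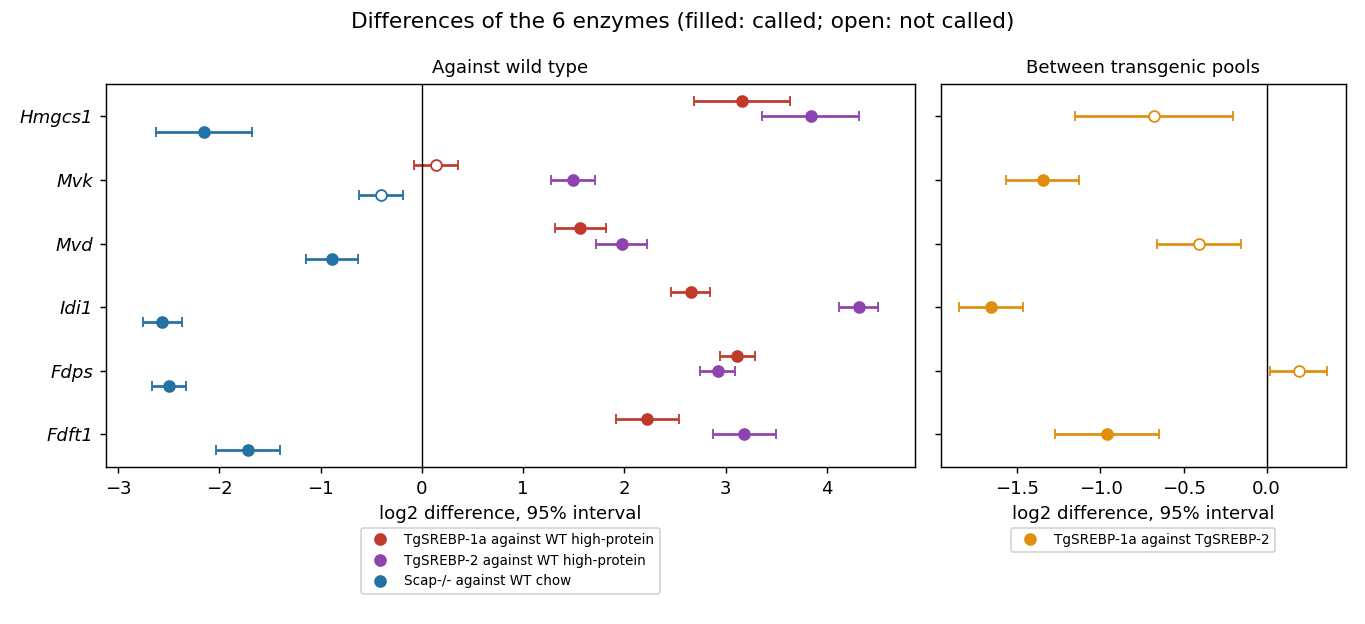
Log2 differences (horizontal axes, different scales) of the 6 enzymes (vertical axis) with 95% intervals from the limma fit, against wild type on the left and TgSREBP-1a minus TgSREBP-2 on the right; filled points were called. All 6 enzymes were called higher in TgSREBP-2, 5 in TgSREBP-1a, and 5 were called lower in Scap-/-; between the transgenic pools Mvk, Idi1 and Fdft1 were called lower in TgSREBP-1a.

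The direct comparison of TgSREBP-1a with TgSREBP-2 asked which enzymes differed between the pools of the isoforms. Idi1, Mvk and Fdft1 were lower in TgSREBP-1a, 3 of 6, where 2.95% of all genes were called lower. Idi1 stood at -1.66 ± 0.09 log2 (interval -1.85 to -1.46, adjusted p = 5.79e-07 in limma), a 3.15-fold difference, Mvk at -1.35 ± 0.10 (interval -1.57 to -1.13) and Fdft1 at -0.96 ± 0.14 (interval -1.27 to -0.65). In each of these the 4 array pairs had 1 sign. The TgSREBP-1a arrays of Idi1, 10.74 and 10.64, lay just above those of WT chow, 10.54 and 10.55, while its TgSREBP-2 arrays lay above both. The TgSREBP-1a arrays of Mvk, 8.32 and 8.47, lay below those of WT chow, 8.48 and 8.61.

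The other members differed less between the transgenic pools. Mvd was at -0.41 ± 0.11 (interval -0.66 to -0.16, adjusted p = 0.0444 in limma), short of 1.5-fold. Hmgcs1 was at -0.68 ± 0.21 (interval -1.15 to -0.20, adjusted p = 0.0756 in limma), and its duplicates were wide apart in TgSREBP-1a. With the replicate number as a block, which pairs arrays within each set, Hmgcs1 was called at the same difference (adjusted p = 0.000441 in limma). It was also called at -0.98 without replicate 1 of TgSREBP-1a, but stood at -0.37 without its replicate 2 (adjusted p = 0.381 in limma). Fdps alone had the higher mean in TgSREBP-1a, at 0.19 ± 0.08 (interval 0.02 to 0.36, adjusted p = 0.171 in limma). A repeated quantile normalization moved that difference to 0.61, where it was called (adjusted p = 0.000383 in limma). The interval of Fdps overlapped that of no other member. Its arrays in these pools read 12.90 to 13.14, toward the upper end of a scale that reached 14.03. The processing can compress differences there, and its part in the Fdps values was not tested. Whether protein levels of the transgenes matched is not known here.

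In the Scap-/- pool 5 of the 6 enzymes fell against WT chow, by 0.89 to 2.57 log2, where 0.921% of all genes were called lower. Idi1 had 7.92 and 8.04 log2 signal in Scap-/- and 10.54 and 10.55 in WT chow, a difference of -2.57 ± 0.09 (interval -2.76 to -2.37, adjusted p = 7.82e-08 in limma). Fdps had 9.60 and 9.54 in Scap-/- and 12.02 and 12.12 in WT chow, and was 5.65-fold lower (-2.50 ± 0.08, interval -2.67 to -2.33). These were ranks 3 and 4 among all decreases of this comparison. Hmgcs1 had 7.25 and 7.60 in Scap-/- and 9.48 and 9.66 in WT chow, a difference of -2.15 ± 0.21 (interval -2.62 to -1.67). Fdft1 had 7.73 and 7.54 in Scap-/- and 9.29 and 9.42 in WT chow, a difference of -1.72 ± 0.14 (interval -2.03 to -1.40). Mvd had 7.22 and 7.34 in Scap-/- and 8.11 and 8.23 in WT chow, a 1.85-fold decrease (-0.89 ± 0.11, interval -1.14 to -0.64). In all 5 the arrays of the pools stood apart. Mvk had 8.10 and 8.17 in Scap-/- and 8.48 and 8.61 in WT chow, and these arrays did not overlap. At -0.40 ± 0.10 (interval -0.62 to -0.19, adjusted p = 0.0667 in limma) Mvk was not called, and its difference was short of 1.5-fold. With the replicate number as a block its adjusted p was 0.012 in limma, but the difference was still too small for a call.

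Because the 2 arrays of a pool share their RNA, the counts were also taken with no test, from the means of the arrays at 1.5-fold. By this view 5 of 6 members were higher in TgSREBP-1a, where 4.86% of all genes were, 6 of 6 in TgSREBP-2 (2.39% of all genes), and 5 of 6 lower in Scap-/- (1.04%). Between the transgenic pools 4 of 6 were lower in TgSREBP-1a (3.04%), with Hmgcs1 added, and between the controls 5 of 6 were lower in WT high-protein (4.45%).

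The call for Mvk depended on the probe set. Its brighter one, 95633_r_at, has a suffix that Affymetrix gives where some rules for choosing probes were relaxed, and its dimmer one, 95632_f_at, a suffix for probes shared by a family of similar sequences. Both were made from the same sequence record. The dimmer one had 6.08 and 6.02 log2 signal in Scap-/- and 6.88 and 6.89 in WT chow, and fell by 0.84 ± 0.08 (adjusted p = 0.000116 in limma over all probe sets with 1 gene). Its TgSREBP-1a arrays read 6.44 and 6.45, its TgSREBP-2 arrays 8.43 and 8.43, and its WT high-protein arrays 6.16 and 6.25. The direction was the same on both probe sets in every comparison, and the size was larger on the dimmer one.

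Fdps had 4 probe sets. The second brightest, 160424_f_at, differed by 2.83 ± 0.09 in TgSREBP-1a and 2.69 ± 0.09 in TgSREBP-2, both against WT high-protein. In Scap-/- it stood at -2.12 ± 0.09 against WT chow, and all 3 were called. Its suffix marks possible cross-hybridisation to similar sequences. The other pair had mean log2 signals of 4.50 and 4.44, below the medians of 6.37 to 6.40 over all probe sets of an array. Of these, 162281_at was at 0.05 in both transgenic pools and -0.04 in Scap-/-, not called, and 162217_r_at was called only in TgSREBP-1a, at 0.93 ± 0.09. Averaging the 4 probe sets brought the Fdps difference in the TgSREBP-1a pool to 1.73, that in the TgSREBP-2 pool to 1.56 and that in the Scap-/- pool to -1.15, each still called.

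**Figure D3:**
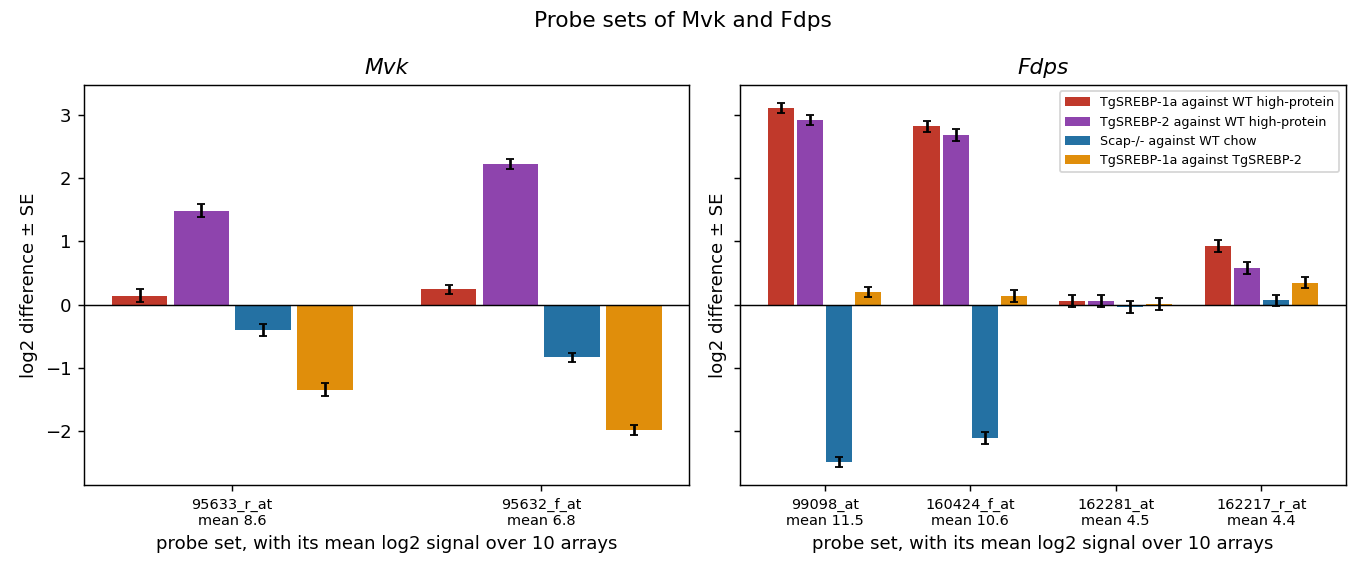
Log2 differences ± SE (vertical axis) of each probe set of Mvk and Fdps (horizontal axis, brightest first, with its mean log2 signal over the 10 arrays), by comparison. The 2 bright probe sets of Fdps gave 3.11 and 2.83 in TgSREBP-1a while 162281_at stayed near 0; both Mvk probe sets rose in TgSREBP-2, by 1.49 and 2.23.

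Over the 10 arrays, which are 2 hybridisations of each of 5 pools, 5 members had like patterns. Hmgcs1, Mvd, Idi1, Fdps and Fdft1 correlated with each other at Pearson r of 0.93 to 0.99, with Idi1 and Fdft1 at the top. Mvk correlated with them at 0.62 to 0.84, lowest with Fdps. The points within a pool share their RNA, so these coefficients describe 5 pools and carry no p.

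Among 493 other genes whose pool means spanned at least 2-fold, those most like the mean pattern of the members were Sqle (r = 0.993), Cyp51 (0.992), Nsdhl (0.985) and Lss (0.967), all enzymes of the steps from squalene to cholesterol. Tmem97 (0.954), known as the sigma-2 receptor, Dhcr7 (0.954), Msmo1 (0.948), Sc5d (0.943), Tm7sf2 (0.936) and the aldolase gene Aldoc (0.935) came next. On the means of the 5 pools the first place went to Cyp51 at 0.996. For Mvk alone the nearest gene was Erg28 (r = 0.983), known in yeast as a scaffold of sterol enzymes, followed by Paip2b (0.965), an inhibitor of poly(A)-binding protein. On the means of the 5 pools this order turned, with Paip2b at 0.999 ahead of Erg28 at 0.985. Erg28 was at 0.48 ± 0.10 in TgSREBP-1a, short of 1.5-fold, and rose by 1.82 ± 0.10 in TgSREBP-2. For Fdps alone it was the histocompatibility gene H2-Q4 (r = 0.985), one of a family of near-identical genes that probes may not tell apart. For Mvd it was Lss (0.986), for Hmgcs1 Nsdhl (0.988), for Idi1 Sqle (0.989) and for Fdft1 Cyp51 (0.994).

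The other genes of sterol synthesis moved with the members. Of 16 listed, 11 were measured, all of them acting after squalene, and the rest were not analysed here. All 11 rose in TgSREBP-1a, with a median of 1.79 log2 against 2.44 for the 6 members and -0.03 for all genes. The same 11 rose in TgSREBP-2, with a median of 2.75 against 3.05 for the members and -0.02 for all genes. In Scap-/- 8 fell and 0 rose, with a median of -1.43 against -1.93 for the members and 0.00 for all genes. The shares of all genes called were 4.78% higher in TgSREBP-1a, 2.18% higher in TgSREBP-2 and 0.921% lower in Scap-/-. Sc5d, a sterol desaturase, was at -1.43 in Scap-/- and not called (adjusted p = 0.0517 in limma), but was called with the replicate block (adjusted p = 0.000694 in limma). Sqle, the epoxidase that acts on squalene, rose by 1.99 ± 0.12 in TgSREBP-1a and by 2.77 ± 0.12 in TgSREBP-2, and it fell by 2.02 ± 0.12 in Scap-/-. Between the transgenic pools 7 of the 11 were lower in TgSREBP-1a, led by Msmo1, a sterol methyl oxidase, at -2.10 ± 0.19. In that comparison 2.95% of all genes were called lower. The smaller increases in TgSREBP-1a included Lbr (0.62 ± 0.12) and Hsd17b7 (0.60 ± 0.13), and both lost their calls without replicate 1 of TgSREBP-1a. In Scap-/- the call of Hsd17b7 (-0.72 ± 0.13) was lost without any 1 of the 4 arrays (adjusted p = 0.0647 to 0.177 in limma).

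**Figure D4:**
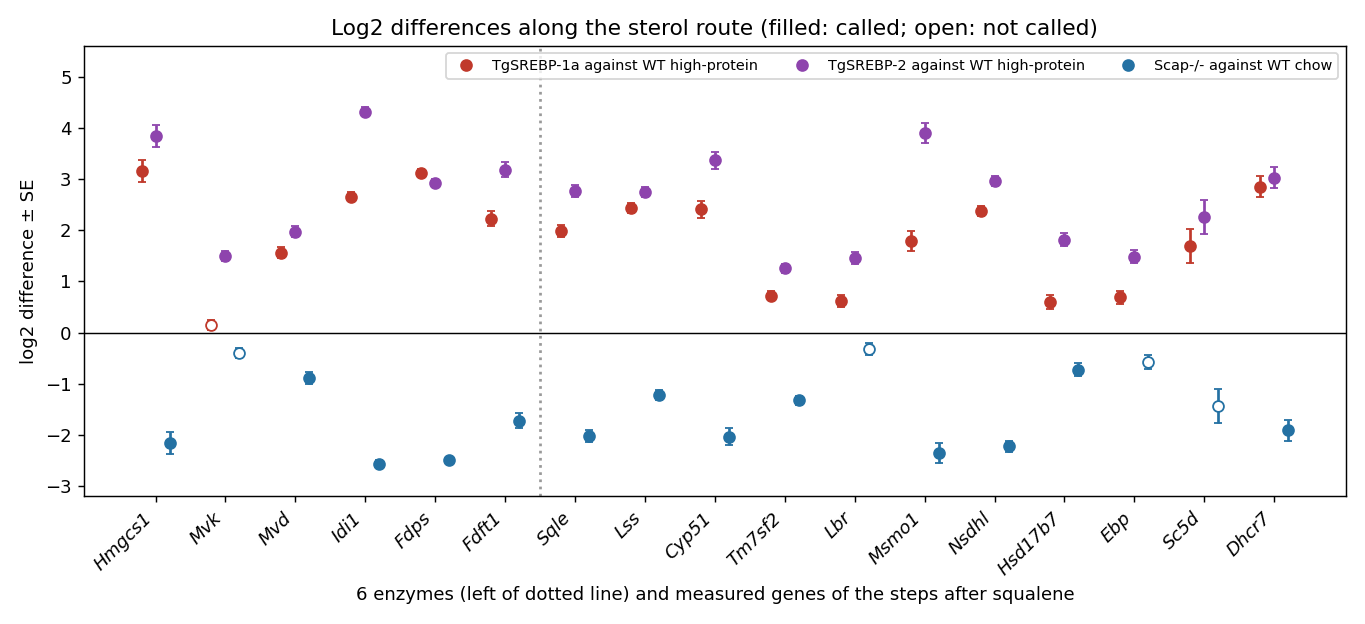
Log2 differences ± SE (vertical axis) of the 6 enzymes and of the 11 other measured sterol genes (horizontal axis, roughly in route order), by comparison with wild type; filled points were called. All 17 were called higher in TgSREBP-2, and all but Mvk in TgSREBP-1a; in Scap-/- all 17 lie below 0, with Mvk, Lbr, Ebp and Sc5d not called.

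Genes of the isoprenoid branches did not pass the test. Of 16 listed, 9 were measured, among them Ggps1, which makes geranylgeranyl diphosphate, Nus1 of dolichol synthesis and Fnta and Fntb of protein farnesyltransferase. Limma called 0 of 9 in either transgenic pool and in Scap-/-, where in that order 1, 0 and 0 had an unadjusted p under 0.05. Of all genes 4.78% were called higher in TgSREBP-1a, 2.18% higher in TgSREBP-2 and 0.921% lower in Scap-/-. Beside such small shares, 0 of 9 does not set this list apart from other genes. Ggps1 and Fntb also lay below the array medians of 6.37 to 6.40 on every array, which limits what they can show. Their differences ran from -0.19 to 0.21 log2 in TgSREBP-1a, -0.22 to 0.23 in TgSREBP-2 and -0.10 to 0.16 in Scap-/-. The TgSREBP-1a arrays of Ggps1 read 6.02 and 5.88 log2 signal, its TgSREBP-2 arrays 5.90 and 5.93 and its WT high-protein arrays 6.10 and 6.06, the highest of the set. It had 6.02 and 5.93 in Scap-/- and 5.98 and 5.93 in WT chow, and the Scap-/- and WT chow arrays overlapped. Of the 4 genes listed for ketone bodies and the HMG-CoA isozyme only Oxct1 was measured, and it was not called in any comparison with wild type. In TgSREBP-2 it was at 0.40 ± 0.09 (adjusted p = 0.0252 in limma), short of 1.5-fold. Its signals of 5.23 to 5.81 log2 also lay below the array medians.

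Of 17 listed genes that control the route, 9 were measured. In TgSREBP-1a 3 rose: Srebf1 (1.86 ± 0.07), Npc2 (1.74 ± 0.11), which carries cholesterol out of lysosomes, and Nfyb (0.65 ± 0.11), a subunit of NF-Y. In TgSREBP-2 Srebf1 and Npc2 rose, by 1.34 ± 0.07 and 0.93 ± 0.11, and in Scap-/- Srebf1 fell by 1.51 ± 0.07. Of all genes 4.78% were called higher in TgSREBP-1a, 2.18% higher in TgSREBP-2 and 0.921% lower in Scap-/-. Whether the mouse probe set of Srebf1 also reads the human transgene is not known here. Insig1, which retains SCAP in the endoplasmic reticulum and is a known SREBP target, lay at 4.19 to 4.71 log2 signal on all 10 arrays and was not called in any comparison with wild type. These values lie below the array medians of 6.37 to 6.40, which limits what this probe set can show.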

How the data were processed

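The authors deposited 1 table of log2 signals for 12488 probe sets and 10 arrays, made with RMA per the submitters' processing notes. Its version is not given in the sources used here. The design text instead speaks of Microarray Suite 5.0, whose signals are linear. Array medians of 6.37 to 6.40 and a range of 2.68 to 14.03 led to the values being used as log2 signals already normalized between arrays. RMA fits probe behaviour over arrays and can compress differences at both ends of the scale. Gene symbols came from the annotation of the platform and were brought up to date by RefSeq gene ID (10817 of 10833 with 1 symbol). Probe sets with several symbols (396), none (1193) or of controls (66) were left out.

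In R 4.3.3, limma 3.58.1 (lmFit, eBayes) was fitted to all 10 arrays, 1 coefficient per group and no block, leaving 5 residual degrees of freedom. The 5 comparisons were each adjusted by Benjamini-Hochberg over 8251 genes. Errors are moderated standard errors. The fit shares 1 variance per gene, although duplicates were wider apart on the high-protein diet. The test was checked on simulated data. The number of arrays limits the precision. Deviations of same-numbered arrays correlated at 0.457 to 0.608 within the high-protein set, where the replicate number therefore counts as pairing them, and at 0.304 in the 1 pair of the Scap set. Between the sets they correlated at -0.482 to -0.122. What the arrays of 1 number share was not tested. The main fit leaves the pairing within the high-protein set out, and the replicate block takes it in. The members, the lists and the rule for named genes (all members and list genes, the 10 genes most like the mean pattern and 2 per member) were chosen with earlier results of these data known. Genes in the closing section follow the same rule.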

Additional observations from a re-analysis of the deposited data

How the results depend on the processing

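The 6 members were refitted in the 5 comparisons under 21 alternative settings: the replicate block, each array left out, fits on the compared pools alone, other probe sets, a filter on dim probe sets, repeated scaling, an intensity trend, array weights and other thresholds. No direction turned in the 450 values this gave, and 440 kept their side of the threshold. The number of members called was 5 in TgSREBP-1a and 6 in TgSREBP-2 under every setting run, 4 to 6 in Scap-/-, 2 to 4 between the transgenic pools and 4 to 6 between the controls. With single arrays left out the numbers were 5, 6, 5, 3 to 4 and 5. Among the log2 differences of members, the replicate block changed 1 call, that of Hmgcs1 between the transgenic pools (-0.68, adjusted p = 0.000441 in limma, n = 2 arrays per pool). Requiring 2-fold ended the calls of Mvd in Scap-/- and between the controls and of Fdft1 between the transgenic pools. Averaging probe sets brought Mvk in Scap-/- to -0.62, past the threshold. Taking the second brightest probe set of Mvk and Fdps, an alternative added after the data were seen, brought it to -0.84, and to -0.68 between the controls, both called. Repeated quantile normalization moved Fdps between the transgenic pools to 0.61. The 11 other sterol genes, also refitted after the data were seen, had 9 to 11 calls in TgSREBP-1a, 11 in TgSREBP-2 and 7 to 9 in Scap-/- with single arrays left out or with the block. The cause of these changes was not tested. Median centring moved the median of all genes by at most 0.02 log2. The dim probe sets of Fdps lie near the low end of the scale, which limits what they can show.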
